A study of Sus scrofa with 48 samples.

Results

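The muscle response to a diet rich in fat and fiber was measured in the high residual feed intake (RFI) line of pigs, using 24 of the 48 arrays in the dataset. Residual feed intake is the difference between what an animal eats and what its growth and maintenance would predict, so that high RFI pigs (RFIpl) are the less efficient line. Arrays were taken by their strain and diet labels only: 12 high RFI pigs received a high fat, high fiber (HF) diet and 12 a low fat, low fiber (LF) diet, each pig being hybridised on its own array. All were barrows (castrated males) of a pure-bred Large White line, with free access to feed, and longissimus, a muscle of the back, was sampled. Fat and fiber rose together in the HF diet, so their separate effects cannot be told apart. Age, litter and weight of the pigs in each group are not given in the sources used here, and the high RFI pigs stand for 1 selected line. The 24 pigs of the low RFI line (RFIneg), also 12 on each diet, are used only where the lines are compared.

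Longissimus muscle is made mostly of fast, glycolytic fibers, with a smaller share of slow, oxidative fibers rich in mitochondria. Dietary fat reaches muscle as fatty acids, which are taken up, activated and oxidised in mitochondria or stored as triglyceride, partly in adipocytes lying between the fibers. Fatty acids also act on PPAR nuclear receptors, which are known to induce genes of fatty acid use such as PDK4, while fiber is fermented in the hindgut into short-chain fatty acids. In bulk muscle, fewer cells of a type and less RNA per cell cannot be told apart.

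All 16 skeletal muscle markers measured were well above background on all 24 arrays, in keeping with the labelled tissue. Values below are log2 processed signals from which the array mean was subtracted, and every difference is HF minus LF on that log2 scale. The arrays lay on 6 slides, each with 2 arrays of each line and diet, and scanning took 2 days. Median processed signals ranged from 55.6 to 107.9 on the HF diet and from 56.8 to 81.7 on the LF diet, and arrays of the same group correlated at 0.966 to 0.989 for HF and 0.978 to 0.990 for LF. A pair of HF arrays stood apart. The array of HF replicate 6 had the highest score on the first principal component, and the array of HF replicate 10 was the brightest and had the lowest score on the second component. HF replicate 10 also had the lowest mean over the muscle markers, -0.33 relative to the 24 arrays, and carried liver transcripts, described at the end. The counts of called probes are given with and without this pair of arrays, as are several list medians.

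No probe passed the threshold. Of the 42125 probes tested with limma, 0 were called at an adjusted p of 0.05 (0.00% of probes tested), the smallest unadjusted p being 2.66e-05 and the smallest adjusted p 0.531. At an unadjusted p under 0.05, 2303 probes, or 5.47%, were counted, of which 1051 (2.49%) were higher and 1252 (2.97%) lower on the HF diet. A variance analysis of the same values gave 0 probes after adjustment and 1840 without it. Over all probes, 48.5% were higher and 51.5% lower on the HF diet, with a median difference of -0.0037. All gene values below are therefore descriptions of measured differences, none of which was called.

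The precision bounds what could have been missed. The median standard error of a difference was 0.10 and the median half-width of the 95% interval was 0.21. For 79.4% of the probes the whole interval lay within 0.5 of 0, which corresponds to a 1.41-fold difference, and for 96.7% it lay within 1. A difference above 0.5 in absolute value was measured for 744 probes and above 1 for 66. The plot of difference against p shows that the widest differences were not those with the smallest p.

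**Figure D1:**
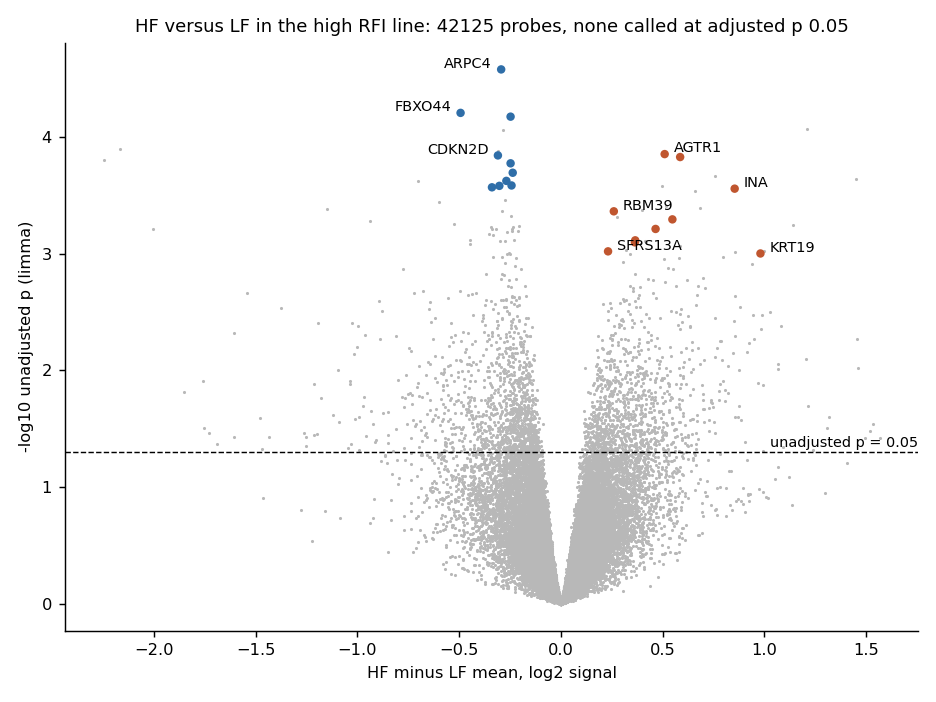
HF minus LF difference (log2 signal, horizontal axis) against -log10 of the unadjusted limma p (vertical axis) for 42125 probes in the high RFI line, 12 pigs per diet. Red and blue points are the 10 genes with the smallest p in each direction, some of them labelled. The smallest p, 2.66e-05 for ARPC4, corresponds to an adjusted p of 0.531, and no probe was called.

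On the HF diet, 12 pigs of the low RFI line were compared with 12 on the LF diet in the same fit. There, 84 probes (0.199%) were called and 4902 (11.6%) had an unadjusted p under 0.05, with 401 probes under 0.001 beside 66 in the high RFI line. The difference between the lines in the diet response was tested directly, and 0 probes (0.00%) were called, with 1875 (4.45%) at an unadjusted p under 0.05 and a smallest adjusted p of 0.395. The lines are therefore not shown to respond differently at any probe by limma. Of the 84 probes called in the low RFI line, 68 (81.0%) had the same sign in the high RFI line and 16 an unadjusted p under 0.05 there. Turned to the sign of the low RFI line, their median difference in the high RFI line was 0.12, whereas their median absolute difference in the low RFI line, where they were selected, was 0.57. Across all 42125 probes, 58.1% had the same sign in both lines and the differences correlated at 0.30, which is a description across probes that are not independent and whose arrays shared slides.

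Among these 84 probes, the nuclear receptor gene NR4A3, an immediate early gene of muscle, held 3 called probes. They differed by -2.14, -2.06 and -1.52 in the low RFI line (adjusted p 0.020, 0.022 and 0.027), and by -0.47, -0.45 and -0.42 in the high RFI line, where none was called. For PPP1R3C, a protein that targets a phosphatase to glycogen, both called probes differed by -0.69 and -0.70 in the low RFI line and by -0.32 and -0.33 in the high RFI line. TXNDC16, a thioredoxin domain protein, differed by 1.44 in the low RFI line and by 0.35 (95% interval -0.14 to 0.84) in the high RFI line. These genes, and members of the lists below other than the first in each direction, were chosen after their values were seen.

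Ranked by unadjusted p among probes with a gene symbol, the 10 genes first in each direction in the high RFI line are described next. Their absolute differences ranged from 0.23 to 0.98, the HF and LF pigs overlapped for all 20, and 16 of the 20 probes were well above background on all 24 arrays. Within slides, 13 of the 20 had the same sign on all 6. The genes were picked by p on these same arrays, so this agreement follows in part from the choice. For 13 of the 20 genes, 38 other probes were tested, of which 26 had the same sign. Of the 20, 15 had the same sign in the low RFI line, beside 58.1% of all probes. There, 6 of them had an unadjusted p under 0.05 (limma), beside 11.6% of all probes. None of the 20 changed sign in any of the settings tried, which reuse the same arrays and so are no separate support.

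A gene measured with several probes can be checked against itself only when the probes read different stretches of the transcript. The first 30 bases of the 60-base array probes are shown for 3 genes, 5′ to 3′, in lower case, with capitals for a run shared with another probe of the same gene. Probes of AGTR1 and ARPC4 shared runs of at most 8 bases, whereas the CDKN2D probes shared 32 bases of sequence and read nearly the same stretch.
AGTR1 probe with the smallest p: gaaacttttgtgaaattcaaccagtgttgt
AGTR1 second probe: ttctgaaatacattcctccaaaggccaaat
AGTR1 further probe: ggtcccaggtagtagtgtcttcctagtcat
ARPC4 probe with the smallest p: atgtgtgcctggtcaggctggcttctgatg
ARPC4 second probe: aggaattgaatttcaaactttttggggagg
ARPC4 further probe: tggatcctccctcccctaattaaagtctct
CDKN2D probe with the smallest p: TGTGGCTTGTTGGTGTTGATTTCTGGGGTG
CDKN2D second probe: ttTGTGGCTTGTTGGTGTTGATTTCTGGGG
Among the 37 other probes of the 20 genes besides the CDKN2D pair, the longest run shared with the probe named was also 8 bases.

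Higher on the HF diet by the smallest p was AGTR1, the type 1 receptor of angiotensin II. Its signal ranged from -0.21 to 0.84 (median 0.43) in HF pigs and from -0.65 to 0.68 (median -0.074) in LF pigs. The HF pigs lay above the LF median in 11 of 12 cases, and 2 of them lay above every LF pig. The difference was 0.51 ± 0.12 (SE, n = 12 per diet), a 1.42-fold higher mean, with an adjusted p of 0.531 (limma). The other probes, which read other sequence as shown above, gave 0.38 and 0.40. In the low RFI line the same probe differed by 0.072.

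NRG4, a neuregulin growth factor known from adipose tissue, ranged from 1.5 to 2.71 (median 2.47) in HF pigs and from 1.14 to 2.71 (median 1.67) in LF pigs. Although 11 of 12 HF pigs were above the LF median, the highest pig of each diet reached the same level. The difference was 0.59 ± 0.14 (SE, n = 12), with an adjusted p of 0.531 in limma, and 0.35 in the low RFI line. The HF mean of the nuclear matrix protein gene BANP was also higher, by 0.37, with an adjusted p of 0.583 (limma).

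RBM39, an RNA-binding protein of the splicing machinery, was the gene with the most probes in this direction. Its signal ranged from 0.55 to 1.16 (median 0.95) in HF pigs and from 0.37 to 0.94 (median 0.65) in LF pigs. The HF mean was higher by 0.26 ± 0.07 (SE, n = 12, adjusted p 0.572 by limma), and 6 of 12 HF pigs were above every LF pig. All 8 other probes were also higher, by 0.11 to 0.20. In the low RFI line the same probe differed by -0.22, and the difference between lines had an adjusted p of 0.395 (limma), the smallest of all probes, and was not called. SFRS13A, another splicing factor of the SR family, was higher by 0.23 and had all 12 HF pigs above the LF median.

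Other genes of this direction had dim probes. INTS9, a subunit of the Integrator complex that processes small nuclear RNAs, ranged from -4.38 to -2.41 (median -3.66) in HF pigs and from -4.54 to -3.79 (median -4.08) in LF pigs. Here 11 of 12 HF pigs were above every LF pig, but only 7 of 12 LF arrays were well above background, and the other probes differed by 0.0013 and 0.18. KRT19, a keratin of epithelia, was higher by 0.98 ± 0.28 (SE), with 11 HF and 5 LF arrays well above background, and the neuronal filament gene INA by 0.85, with 3 HF arrays and 1 LF array. The other INA probes gave -0.23 and -0.010. NSDHL, an enzyme of cholesterol synthesis, was higher by 0.47 by its named probe, and its brightest probe gave 0.11. Its 4 other probes ranged from -0.10 to 0.11 and 2 of them had the same sign, so the probes disagreed.

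Lower on the HF diet by the smallest p of all probes was ARPC4, a subunit of the Arp2/3 complex that nucleates actin branches. Its signal ranged from 1.0 to 1.81 (median 1.36) in HF pigs and from 1.45 to 1.89 (median 1.66) in LF pigs. Below the lowest LF pig lay 8 of 12 HF pigs, and the HF mean was lower on all 6 slides. The difference was -0.29 ± 0.06 (SE, n = 12, adjusted p 0.531, limma). The other ARPC4 probes differed by 0.11 and -0.036, so the probes disagreed. Without HF replicate 6, ARPC4 differed by -0.33 with an adjusted p of 0.0440 and was the only probe called in the high RFI line. Without both HF replicates 6 and 10, the smallest adjusted p was 0.176 and no probe was called, with 2802 at an unadjusted p under 0.05.

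FBXO44, a substrate receptor of ubiquitin ligases, ranged from -1.48 to 0.03 (median -0.47) in HF pigs and from -0.61 to 0.18 (median 0.04) in LF pigs. All 12 HF pigs were below the LF median, and the difference was -0.49 ± 0.11 (SE, adjusted p 0.531, limma). It was -0.35 in the low RFI line. CAPN10, a calpain protease, ranged from 2.33 to 2.84 (median 2.62) in HF pigs and from 2.69 to 3.11 (median 2.87) in LF pigs. Again all 12 HF pigs were below the LF median, 9 of them below every LF pig, and the difference was -0.25 ± 0.06 (SE), with -0.17 by its other probe.

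CDKN2D, an inhibitor of cyclin-dependent kinases, ranged from 0.70 to 1.59 (median 1.15) in HF pigs and from 1.14 to 1.57 (median 1.49) in LF pigs, a difference of -0.31 ± 0.07 (SE). The second CDKN2D probe gave -0.23, but shares most of its sequence with the first and is not independent of it. FADD, the adaptor of death receptors, differed by -0.34 and its 3 other probes by -0.18 to -0.021. GLT8D1 (a glycosyltransferase domain protein), JPT1, ZFAND3, CCDC167 and SLIT3 (a secreted guidance ligand) differed by -0.30 to -0.24. Their other probes did not all follow: 4 of 8 for GLT8D1, 1 of 3 for ZFAND3 and 0 of 1 for SLIT3 had the same sign. The plot of the first 6 genes of each direction by pig shows the overlap of the diets in each.

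**Figure D2:**
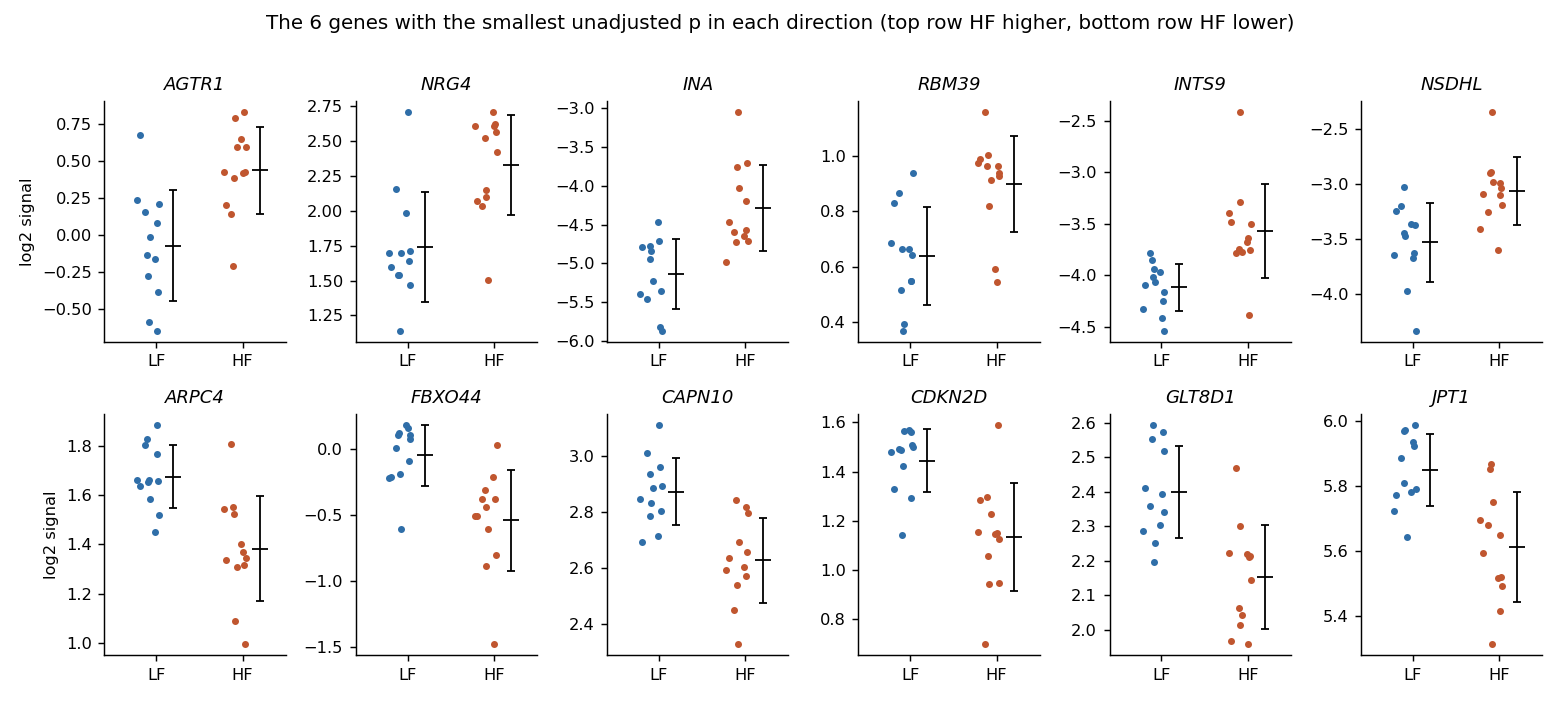
Centred log2 signal (vertical axes, a scale for each gene) of the 6 genes with the smallest unadjusted p in each direction, for each of 12 LF (blue) and 12 HF (red) pigs of the high RFI line. Bars give the mean ± SD of each diet. The diets overlap for all 12 genes drawn, including ARPC4 (8 of 12 HF pigs below every LF pig) and INTS9 (11 of 12 HF pigs above every LF pig).

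Lists of genes for fuel use, fiber type, growth, stress and other cell types were then read, with 1 probe per gene, the brightest. Over 37 lists with 708 measured genes, 0 genes were called. Each list is described by how many members were higher or lower and by its median, beside 48.5% higher and a median of -0.0037 over all probes. No list was tested as a whole, and members of a list share regulation and arrays, so their number does not count as replication. With all probes counted instead, where genes with many probes weigh more, several list medians had the other sign. Among these were chaperones (0.021), glucocorticoid targets (0.032), fatty acid uptake (0.019), and nerve and Schwann cell markers (0.29). Insulin and mTOR signalling (-0.012) and short-chain fatty acid use (-0.0092) also turned, so these directions depend on the probe chosen. The plot of list medians, with 1 probe per gene, gives all 37.

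**Figure D3:**
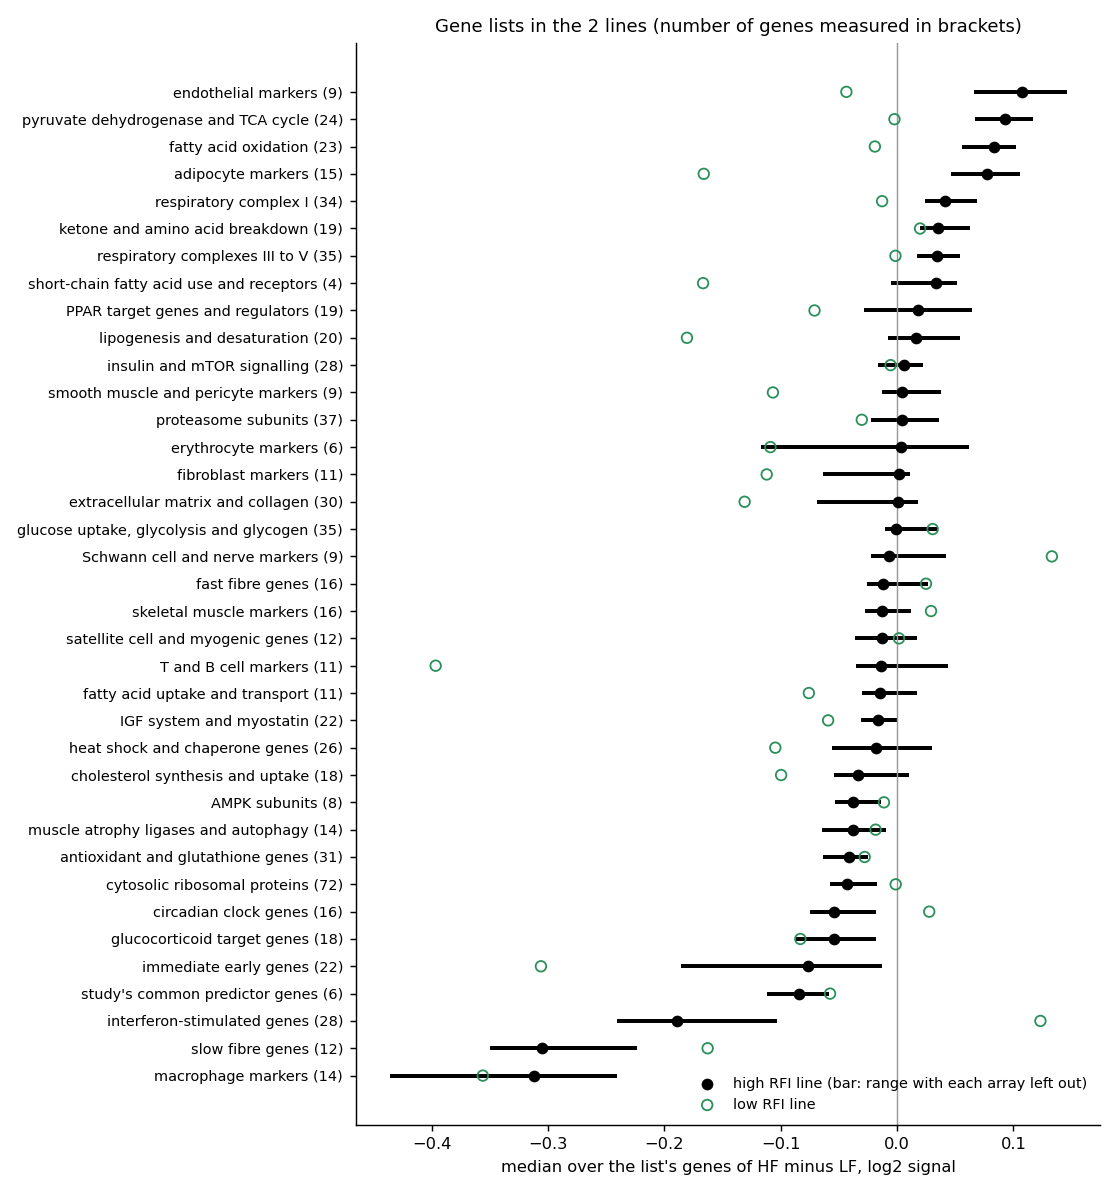
Median over each list's genes of the HF minus LF difference (log2 signal), in the high RFI line (black, bars spanning the values with each of the 24 arrays left out in turn) and in the low RFI line (open green). The lowest high RFI medians are those of macrophage markers (-0.31) and slow fiber genes (-0.31), and the highest is that of endothelial markers (0.11).

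Genes of fatty acid oxidation were slightly higher on the HF diet in mean, without any member reaching an unadjusted p under 0.05. Of 23 genes, 21 were higher and 2 lower, the median difference being 0.083, a value that stayed between 0.056 and 0.10 with each array left out. HADHB, a subunit of the mitochondrial trifunctional protein, ranged from 4.31 to 4.82 (median 4.55) in HF pigs and from 4.16 to 4.71 (median 4.45) in LF pigs, a difference of 0.11 ± 0.07 (SE, adjusted p 0.921 by limma). The medium-chain dehydrogenase ACADM differed by 0.14 and the carnitine transferase CPT1B by 0.14, while ACADS, the short-chain dehydrogenase, differed by -0.043. Averaged over the list, the 12 HF pigs spanned -0.15 to 0.22 and the 12 LF pigs -0.33 to 0.22, so the diets overlapped widely. In the low RFI line the median was -0.019, with 9 of 23 genes higher.

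Most mitochondrial genes downstream of these enzymes had a slightly higher HF mean. For pyruvate dehydrogenase and the TCA cycle, 20 of 24 genes were higher (median 0.093). An unadjusted p under 0.05 was found for 4 genes (16.7%), 3 higher and 1 lower, beside 5.47% of all probes. SDHB, a subunit of succinate dehydrogenase, ranged from 6.81 to 7.29 (median 7.02) on HF and from 6.69 to 7.12 (median 6.83) on LF, differing by 0.16 ± 0.06 (SE, adjusted p 0.839, limma). It was higher on all 6 slides, and its 8 other probes were higher by 0.14 to 0.24. The lipoamide dehydrogenase DLD differed by 0.18 and SUCLG2, a subunit of succinyl-CoA ligase, by 0.18. PDK3, a kinase that inhibits pyruvate dehydrogenase, differed the other way, by -0.37, with all 12 HF pigs below the LF median, but its other probes gave -0.36 and 0.045.

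Of 34 complex I genes, 27 were higher (median 0.041), and of 35 genes of complexes III to V, 25 were higher (median 0.034). COX5A, a cytochrome c oxidase subunit, differed by 0.18 ± 0.07 (SE, adjusted p 0.838, limma) and NDUFS1 of complex I by 0.17 ± 0.07, with 11 of 12 HF pigs above the LF median for each. In the low RFI line the medians of these respiratory lists lay between -0.013 and -0.0014. The other NDUFS1 probe gave -0.077, so its probes disagreed. Without HF replicates 6 and 10, the medians were 0.12 for the TCA cycle, 0.076 for complex I and 0.065 for complexes III to V. Without HF replicate 12 that of complex I was 0.024, and without HF replicate 4 that of complexes III to V was 0.017. The median of complexes III to V was 0.063 on scan day 1 and -0.012 on day 2.

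By 1 probe per gene, PPAR targets and regulators leaned little: 12 of 19 were higher, with a median of 0.018. Over all probes of the list, 47 of 66 were higher, with a median of 0.10. PDK4, a kinase that restrains glucose oxidation, varied most between pigs. It ranged from 0.58 to 4.73 (median 3.68) in HF pigs and from -0.52 to 5.42 (median 2.62) in LF pigs. The difference of 0.87 ± 0.56 (SE, n = 12, adjusted p 0.921, limma) has a 95% interval from -0.26 to 2.0, so that the large spread within each diet leaves even its sign unsettled. All 10 other PDK4 probes were higher, by 0.55 to 0.93, in the same pigs. UCP2, an uncoupling protein also abundant in leukocytes, differed by -0.39, PPARD by -0.22 and the muscle uncoupling protein UCP3 by 0.32. Genes of fatty acid uptake were near 0 (median -0.015, 5 of 11 higher), LPL differing by 0.12 with an interval of -0.093 to 0.33.

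Lipogenic genes were evenly split, 10 higher and 10 lower (median 0.016). MLXIPL, a transcription factor that responds to carbohydrate, was dim (9 HF and 6 LF arrays well above background) and differed by 0.62 ± 0.24 (SE, adjusted p 0.838, limma), against -0.35 in the low RFI line. SCD, the stearoyl-CoA desaturase, ranged from 1.89 to 5.75 on HF and from 1.61 to 5.26 on LF, with a difference of 0.22 ± 0.44 (SE). FASN, fatty acid synthase, differed by 0.083 ± 0.30 (SE). Adipocyte markers gave a median of 0.077 with 11 of 15 higher, and the adipokine gene ADIPOQ differed by 0.52 ± 0.37 (SE). These lists turned with the scan day: the lipogenic median was -0.14 on day 1 and 0.27 on day 2, and the adipocyte median -0.14 and 0.16. The low RFI line gave medians of -0.18 and -0.17.

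Cholesterol genes gave a median of -0.034, and ABCA1, the exporter of cholesterol, was lowest at -0.59 ± 0.22 (SE), with -0.80 in the low RFI line. For glucose uptake, glycolysis and glycogen, 17 of 35 genes were higher, with a median of -0.0006, or 0.041 without HF replicates 6 and 10. PFKFB1, an enzyme that sets the level of fructose 2,6-bisphosphate, ranged from 3.47 to 4.30 (median 3.87) on HF and from 3.29 to 3.81 (median 3.60) on LF, differing by 0.24 ± 0.08 (SE, adjusted p 0.834, limma), and its 4 other probes by 0.16 to 0.22. Insulin and mTOR signalling (median 0.0063), the IGF system and myostatin (-0.016) and proteasome subunits (0.0038) were all close to the median of all probes. AMPK subunits were lower for 6 of 8 genes (median -0.038), with a median of -0.11 on scan day 1 and 0.052 on day 2. Only 4 genes of short-chain fatty acid use were measured, with differences of -0.0098 to 0.084.

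Slow fiber genes showed the widest shift of the muscle lists. Of 12 genes, 11 were lower on the HF diet and 6 of the 12 had an unadjusted p under 0.05, beside 5.47% of all probes, with 0 called. The median difference was -0.31. Counting all probes, 83 of 85 were lower. MYH7, the slow myosin heavy chain, ranged from 9.14 to 9.90 (median 9.48) in HF pigs and from 9.54 to 10.01 (median 9.65) in LF pigs. Below every LF pig lay 7 of 12 HF pigs, and the difference was -0.22 ± 0.09 (SE, n = 12, adjusted p 0.838, limma), with -0.47 to -0.24 by its 8 other probes.

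Other proteins of the slow sarcomere, named after their values were seen, behaved alike in mean. MYL2, a slow myosin light chain, ranged from 7.67 to 9.18 (median 8.62) on HF and from 8.62 to 9.30 (median 8.82) on LF. Its difference was -0.35, that of the slow troponin I gene TNNI1 -0.45, that of the slow tropomyosin gene TPM3 -0.37 and that of the slow troponin T gene TNNT1 -0.26, with adjusted p from 0.869 to 0.905 in limma. CASQ2, the calsequestrin of slow fibers and heart, differed by -0.66 ± 0.26 (SE). MB, the oxygen store myoglobin, was the exception at 0.073.

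Averaged over the slow fiber list, HF pigs ranged from -1.02 to 0.33 (median -0.02) and LF pigs from -0.22 to 0.52 (median 0.20). The HF pigs spread more widely: 5 of 12 lay below every LF pig, and 10 of 12 below the LF median. The lowest was HF replicate 11, without which the list median was -0.22. On day 1 the median was -0.25 and on day 2 -0.37, and 5 of 6 slides had a lower HF mean. The low RFI line had a median of -0.16 with 11 of 12 genes lower and 0 at an unadjusted p under 0.05. Fast fiber genes were near 0 (median -0.012, 7 of 16 higher, and 0.038 without HF replicates 6 and 10), TNNT3 differing by 0.16. The embryonic myosin gene MYH3 differed by -1.12 ± 0.48 (SE), within a range of 0.43 to 6.44 over the 24 pigs.

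Macrophage markers were lower on the HF diet for 14 of 14 genes (40 of 40 probes), with a median of -0.31. Of these, 5 genes (35.7%) had an unadjusted p under 0.05, beside 5.47% of all probes, and 0 were called. FCER1G, a signalling chain of Fc receptors, ranged from 0.025 to 2.29 (median 0.51) in HF pigs and from -0.014 to 2.25 (median 1.13) in LF pigs, and differed by -0.49 ± 0.21 (SE, n = 12, adjusted p 0.885, limma). LYZ, lysozyme, spanned -2.67 to 4.86 (median -0.42) on HF and -1.21 to 2.85 (median 1.25) on LF, a difference of -1.26 ± 0.58 (SE). The adaptor TYROBP differed by -0.43 and the scavenger receptor CD163 by -0.20.

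The macrophage list depended on single pigs and on the day. HF replicate 6 had a list mean of 1.6, the highest of all 24 pigs, the next highest being 0.90, and the other HF pigs ranged down to -0.93. Without that array the list median was -0.44, without HF replicates 6 and 10 it was -0.50, and without HF replicate 12 it was -0.24. The median was 0.096 on scan day 1, where HF replicate 6 lay, and -0.77 on day 2. That of the low RFI line was -0.36, with 13 of 14 genes lower. Genes with the highest loadings on the first principal component included LYZ, GPNMB and SPP1 of macrophages, and that component held 13.3% of the variance. Its score differed by -16.0 between diets (permutation p 0.202, 100000 permutations, two-sided), and by -24.4 (permutation p 0.0363, unadjusted) without HF replicate 6. That array was singled out by this same score, so the wider difference without it follows from the choice and is no evidence of a diet effect. With each other array left out, the permutation p was 0.0882 to 0.346. Over the 5 array measures compared on all 24 arrays, which were the first 3 components, the median signal and the share of probes above background, adjusted p ranged from 0.781 to 0.939. The part of macrophage content in the other differences was not tested.

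**Figure D4:**
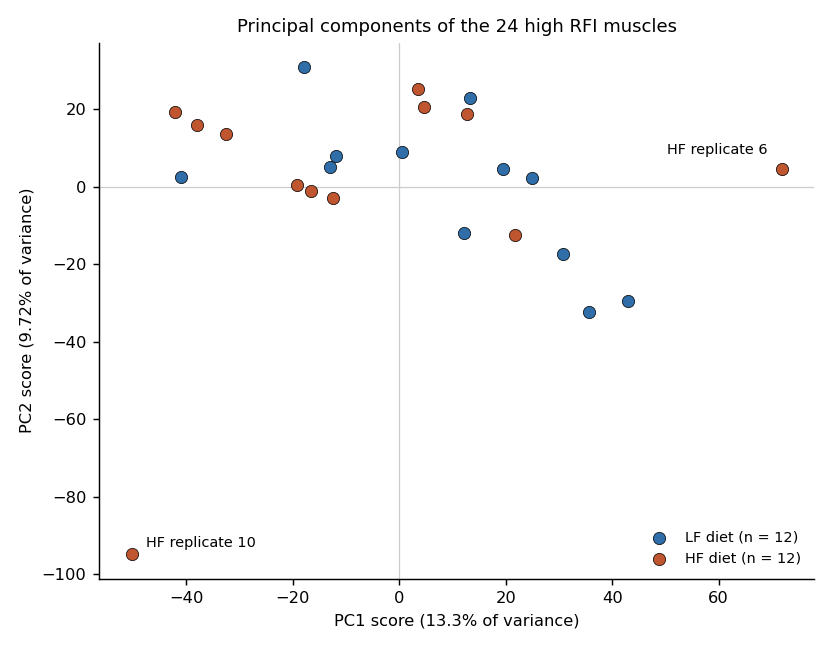
Scores of the 24 high RFI arrays on the first (PC1, 13.3% of variance) and second (PC2, 9.72%) principal components, for LF (blue) and HF (red) pigs. HF replicate 6 has the highest PC1 score (71.9) and HF replicate 10 the lowest PC2 score (-94.8), and the other pigs of both diets overlap.

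Lysosomal cathepsins, held in the list of atrophy and autophagy genes and abundant in macrophages, were lower as well. CTSB ranged from 5.21 to 6.53 (median 5.70) on HF and from 5.60 to 6.59 (median 6.09) on LF, a difference of -0.28 ± 0.10 (SE, adjusted p 0.814, limma), with -0.08 on day 1 and -0.48 on day 2, and CTSD differed by -0.18. The list as a whole had 10 of 14 genes lower and a median of -0.038, or -0.078 without HF replicates 6 and 10. Among antioxidant genes, PRDX1, a peroxiredoxin, ranged from 3.44 to 4.42 (median 3.94) on HF and from 4.06 to 4.50 (median 4.20) on LF. Its difference was -0.27 ± 0.09 (SE, adjusted p 0.794), with -0.25 in the low RFI line, and NQO1 differed by 0.32. The metallothionein gene MT1A differed by -1.22 ± 0.56 (SE).

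Interferon-stimulated genes were lower for 24 of 28 members, with a median of -0.19, and 3 (10.71%) had an unadjusted p under 0.05, beside 5.47% of all probes. IRF7, a transcription factor of the interferon response, ranged from 0.82 to 1.59 (median 1.12) on HF and from 0.98 to 2.66 (median 1.34) on LF, differing by -0.35 ± 0.13 (SE, adjusted p 0.838, limma). The other IRF7 probes gave -0.072 and 0.039, so its probes disagreed. The antiviral gene MX2 differed by -0.54. LF replicate 3 stood apart with a list mean of 1.35, and its ISG15 level of 6.42 was the highest of the LF pigs, whose median was 2.65. Without that pig the list median was -0.10. For the low RFI line the median had the other sign, 0.12, but the difference between lines was called for no gene.

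Other cell types moved little in mean. Endothelial markers were higher for 9 of 9 genes, by 0.012 to 0.15 (median 0.11), with 0 at an unadjusted p under 0.05, and ENG, a coreceptor of endothelium, differed by 0.15 ± 0.09 (SE). Without LF replicate 3 the endothelial median was 0.066, and in the low RFI line it was -0.044 with 7 of 9 genes lower. Extracellular matrix genes (0.0006), fibroblast markers (0.0013), smooth muscle and pericyte markers (0.0044), and T and B cell markers (-0.014) had medians near 0, although the last was 0.32 on scan day 1 and -0.38 on day 2. TIMP1, an inhibitor of matrix proteases, differed by -0.33 ± 0.12 (SE). Ribosomal protein genes were lower for 67 of 72, but by a median of only -0.043, and by -0.018 without HF replicate 10.

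Of 9 nerve and Schwann cell markers, 4 were higher and 5 lower in mean (median -0.0068). MBP, a myelin protein, differed by 0.43. NEFM, a neurofilament, differed by -2.0 ± 0.55 (SE, adjusted p 0.572, limma). It was well above background on 1 HF array and 8 LF arrays, so that most of its HF values are near the floor of the array. SOX10 and S100B of Schwann cells differed by -0.13 and -0.012, and the nerve content of the samples was not tested.

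**Figure D5:**
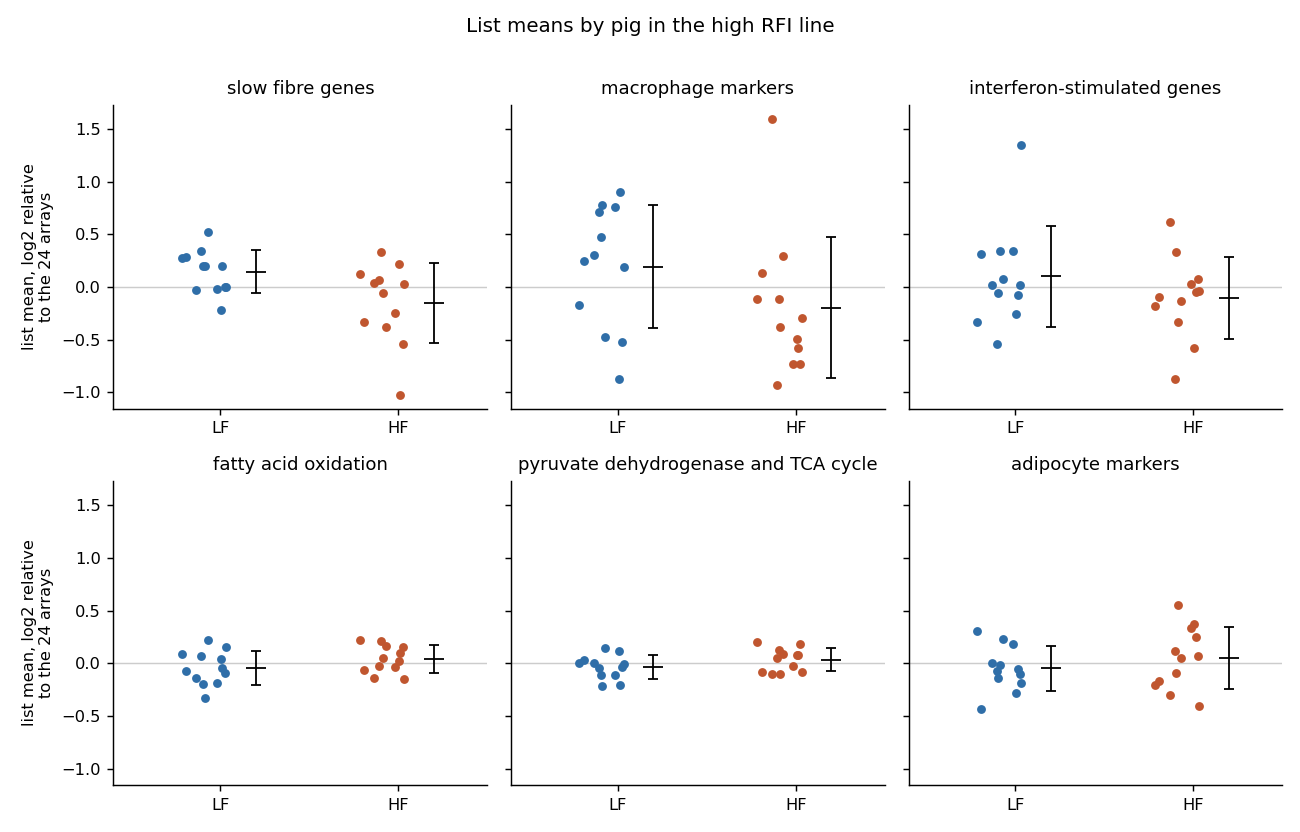
Mean over the genes of 6 lists for each of 12 LF (blue) and 12 HF (red) pigs of the high RFI line, as log2 signal relative to the 24 arrays; bars give mean ± SD. The diets overlap in all 6, with HF replicate 6 at 1.6 for macrophage markers, LF replicate 3 at 1.35 for interferon-stimulated genes and HF replicate 11 at -1.02 for slow fiber genes.

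The 6 genes that the study named as common predictors of feed efficiency were also read. Because the study chose them on samples that include these, they are no independent evidence. By the brightest probe of each gene, none had an unadjusted p under 0.05. EZR, which links membrane and actin, differed by -0.28 ± 0.17 (SE), FKBP5, a glucocorticoid-induced chaperone, by -0.23 ± 0.27, MACF1 by -0.12, ZNF644 by -0.049, DMTF1 by 0.046 and ANKRD1, a stretch-responsive muscle protein, by 0.035 ± 0.29. The other probe of MACF1 gave -0.21 (unadjusted p 0.0219, limma, not called), and that of DMTF1 gave -0.19, so the DMTF1 probes disagreed. ANKRD1 ranged from 6.39 to 8.57 on HF and from 6.16 to 8.53 on LF. The glucocorticoid targets as a list had a median of -0.054, with -0.27 on day 1 and 0.21 on day 2. Immediate early genes, sensitive to handling and sampling, had a median of -0.077 (16 of 22 lower). It was -0.22 without HF replicates 6 and 10, -0.19 without HF replicate 9 and -0.013 without LF replicate 3. Chaperones had a median of -0.018 (15 of 26 lower), which was 0.030 without LF replicate 3, -0.10 on scan day 1 and 0.018 on day 2. For the low RFI line 24 of 26 chaperones were lower.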

How the data were processed

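Longissimus muscle RNA of 48 pigs was hybridised to 1-colour Agilent pig arrays, 1 pig per array. The deposited scanner files hold spot intensity values per the file headers, background-subtracted by the scanner software. The authors also deposited a log2 table of 34472 probes, which was used only as an alternative. It matches the log2 median signal minus each array's median over those probes. The submitters' processing notes name R 2.10.0.

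Here the log2 processed signal of non-control probes was averaged per probe, without spots flagged as outliers, and the array mean subtracted. Of 60305 probes, 42125 were kept, those above background by the scanner's own flag on 12 or more of 48 arrays. The 4 line and diet groups were fitted together with limma 3.58.1 in R 4.3.3, so they share 1 estimate of spread, with Benjamini-Hochberg adjustment over all probes at 0.05. Scripts were tested on simulated data. Array measures were compared by two-sided permutation tests. Gene symbols, held by 26603 probes (44.1%), came from the arrays' own names, RefSeq accessions or gene IDs and can be old. The named genes were the 10 with the smallest p in each direction, then the member first by p in each direction of every gene list, and the study's common predictor genes. Members and lists were chosen with earlier results of these data known. Replicate numbers only name the pigs and pair none, and p-values measure the spread between pigs. The number of arrays limits the precision.

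Alternatives were another centring, quantile normalization, normexp background (offset 50), other filters, outlier spots kept, slide or scan day as a block, the high RFI arrays alone, the variance analysis of the methods, the deposited table and leaving out arrays. No genome was used, so no positions are given. Some genes that the rule names are not reported here.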

Additional observations from a re-analysis of the deposited data

How the results depend on the processing

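The count of called probes in the high RFI line was 0 under every alternative except without HF replicate 6, where it was 1 (range 0 to 1 with each array left out), and the line by diet count was 0 throughout. With each array left out, probes at an unadjusted p under 0.05 ranged from 1958 to 2911. The low RFI line, with 84 called, gave 205 with 75th percentile centring, 14 without a filter on dim probes, 143 in the deposited table, 165 with slide and 148 with scan day as a block, and 173 without HF replicates 6 and 10 of the high RFI line, which share the estimate of spread; the cause was not tested. The PC1 difference ranged from -24.4 to -12.2 with each array left out. Signs turned only for small differences: ACADS was 0.0020 without both arrays, and SLC16A1 was 0.0093 with 75th percentile centring and 0.0074 with quantile normalization. With each array left out, SLC16A1 ranged from -0.045 to 0.018, PRKAA2 from -0.019 to 0.049, ALAS2 from -0.024 to 0.11 and ANKRD1 from -0.087 to 0.14.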

Other observations

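The array of HF replicate 10 carried liver transcripts. Of 21 liver genes, listed after that array was seen to stand apart, 11 had their highest value of the 24 arrays there. Over all 21 genes, the median gap to the median of the other 23 arrays was 2.16 (log2). The remaining genes were higher on another array, among them ALB, at 1.95 there and up to 2.22 elsewhere. GC, the vitamin D binding protein gene, was at -0.55 against -4.06 to -2.20 on the other arrays, and FABP1, the liver fatty acid binding protein gene, at -0.47 against -6.86 to -2.39. Over the list, the median HF minus LF difference was 0.027, and -0.071 without that array. The source of this signal was not tested.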
